A study of Mus musculus with 12 samples.

Results

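Amino acid transporter genes were followed across 4 sorted populations of CD4 T cells from the spleens of lupus-prone mice. The genes were taken by symbol from 7 solute carrier families, Slc1, Slc3, Slc6, Slc7, Slc36, Slc38 and Slc43. A probe set, the group of array probes that reads 1 transcript, was a member where its annotation gave a single symbol of these families. This gave 125 of the 45037 probe sets tested and 63 of the 18193 genes that the annotation names. Of the 63 genes, 31 had 1 probe set and 32 had several. The symbols Slc36a1os, Slc6a19os and Slc7a6os name opposite-strand genes rather than transporters, which leaves 60 genes without them. Families are defined by sequence, so a few members carry other cargo, such as dopamine (Slc6a3), creatine (Slc6a8) or nucleobases (Slc43a3).

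All mice were female MRL/Faslpr mice, a strain that develops lupus, and the lpr mutation of Fas, which encodes a death receptor, was thus present in all 4 populations. Cells were sorted directly from spleen on TCRb and CD4 without B220. From mice aged 16 to 24 weeks, CD44+ cells were divided into CD62Llo PSGL1lo, CD62Llo PSGL1hi and CD62Lhi PSGL1hi populations by L-selectin (CD62L), a lymph node homing receptor, and by PSGL1, a ligand of selectins. The naive cells were CD62Lhi and CD44lo and came from mice aged 6 to 8 weeks, so every comparison with naive cells is also one between ages, and the 2 cannot be told apart. Each population was measured on 3 arrays. The sample titles call these technical replicates while the design text speaks of 3 separate sorts, so the p-values cover only the spread among these arrays.

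T cells take up amino acids through transporters of the plasma membrane, and activation is known to raise several of them. Heavy and light chains such as the products of Slc3a2 and Slc7a5 pair to exchange large neutral amino acids, sodium-coupled carriers such as those of Slc38a1 and Slc38a2 bring in glutamine and other small neutral amino acids, and carriers of the lysosome report its amino acid content to the kinase mTORC1. Amino acid shortage acts through the kinase GCN2 and the transcription factor ATF4, whose known targets include several transporter genes.

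Each deposited value is the ratio of a probe set's signal on 1 array to that probe set's median over the 12 arrays, so a ratio of 1 is the middle of the 12. Such ratios compare arrays for 1 probe set. They give no order of abundance between genes and do not show whether a gene is present. Differences below are on the log2 scale with the standard error of a fit by limma to all 12 arrays. Calls were made where the p adjusted over all 45037 probe sets (Benjamini-Hochberg) fell under 0.05. Array medians of the ratio spanned 0.967 to 1.022, and the median SD of log2 ratios within a population ran from 0.105 in naive to 0.151 in CD62Llo PSGL1lo cells. The median standard error of a difference was 0.12. RNA of Selplg, which encodes PSGL1, followed the gate, with ratios of 0.118 to 0.153 in CD62Llo PSGL1lo cells and 0.906 to 1.15 in the other 3 populations. Cd44 ratios were 0.772 to 1.40 in the CD44+ populations and 0.0752 to 0.0842 in naive cells. In a sorted population, fewer cells with a transcript and less of it per cell cannot be told apart.

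Transporter probe sets had calls about as often as all probe sets. The 4 populations differed in 25 of the 125 member probe sets by the F test (20.0%), against 23.7% of all probe sets. In at least 1 of 6 pairwise comparisons, 38 member probe sets of 24 genes were called, and 87 probe sets and 39 genes were called in none. These were 30.4% of the member probe sets, against 30% of all probe sets, and 38.1% of the member genes, against 42.4% of all 18193 genes. The 14 member probe sets whose highest ratio was at least 2 times the lowest were all among those called. They made up 11.2% of the members, against 19.9% of all probe sets, and the median of highest over lowest ratio was 1.45 over members and 1.5 over all probe sets. By family, genes with a call numbered 5 of 7 in Slc1, 0 of 2 in Slc3, 4 of 21 in Slc6, 4 of 16 in Slc7, 3 of 5 in Slc36, 5 of 9 in Slc38 and 3 of 3 in Slc43. A gene with several probe sets has more chances of a call, and 54.8% of all genes with several had one, against 30.3% of all genes with 1. Counted by probe set, the calls were 7 of 21 in Slc1 (33.3%), 0 of 2 in Slc3, 5 of 36 in Slc6 (13.9%), 6 of 29 in Slc7 (20.7%), 3 of 5 in Slc36, 14 of 27 in Slc38 (51.9%) and 3 of 5 in Slc43. The differences between families were not tested. Among the 38 called probe sets the mean ratio was highest in naive cells for 17, in CD62Llo PSGL1lo cells for 13, in CD62Llo PSGL1hi cells for 7 and in CD62Lhi PSGL1hi cells for 1.

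Set beside all probe sets, the members leaned upwards in PSGL1lo cells relative to the other CD44+ populations. Of the 125 members, 10 (8.00%) were higher in CD62Llo PSGL1lo cells when set against CD62Llo PSGL1hi cells, against 3.41% of all probe sets, and 1 (0.8%) was lower, against 4.97%. Against CD62Lhi PSGL1hi cells, 11 members (8.80%) were higher, with 5.37% of all probe sets, and 1 was lower, with 6.27%. The higher probe sets came from 8 genes in the first comparison and 9 in the second, with all 3 Slc1a4 probe sets among them in both. The 2 comparisons share the PSGL1lo arrays. The median difference over the 125 members was 0.05 in the first and 0.02 in the second, against 0.00 over all probe sets in both. With 1 probe set per gene, 7 of the 63 genes were higher and 0 lower in the first, where 10.8% of all genes were called. In the second 8 were higher and 2 lower, where 14.9% of all genes were called. What made up the lean was not tested. Compared with naive cells the counts lay close to the background. PSGL1lo cells had 16 members higher (12.8%, against 9.53%) and 10 lower (8.00%, against 10.6%); after quantile normalization these were 14 and 3. CD62Llo PSGL1hi cells had 10 higher (8.00%, against 9.1%) and 10 lower (8.00%, against 8.16%), and CD62Lhi PSGL1hi cells had 7 higher (5.60%, against 8.6%) and 9 lower (7.20%, against 8.66%), or 5 and 4 after quantile normalization.

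**Figure D1:**
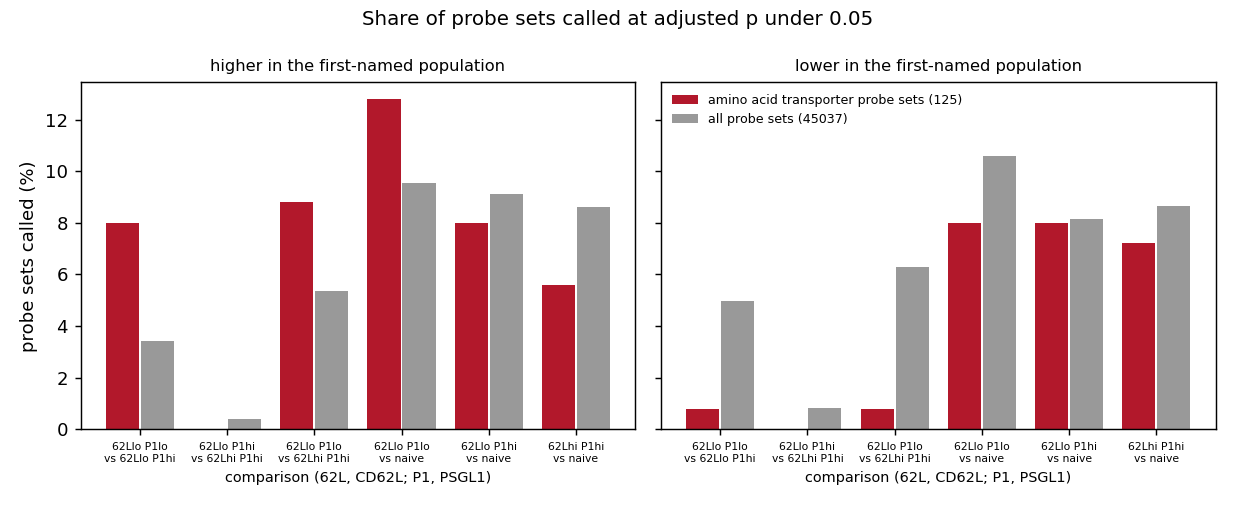
Share of probe sets called at an adjusted p under 0.05 (limma) in each of the 6 comparisons, for the 125 amino acid transporter probe sets (red) and all 45037 probe sets (grey); the left panel counts probe sets higher in the first-named population and the right panel those lower. Transporter probe sets exceed the grey bars on the left in the 3 comparisons that start with PSGL1lo cells (8.00, 8.80 and 12.8%), and no transporter probe set was called between CD62Llo PSGL1hi and CD62Lhi PSGL1hi cells.

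Slc1a4 set PSGL1lo cells apart from all other populations. Slc1a4 encodes ASCT1, an exchanger of alanine, serine, cysteine and threonine. Its ratios were 10.02, 4.04 and 7.56 on the 3 CD62Llo PSGL1lo arrays, against 0.949, 1.28 and 0.847 in CD62Llo PSGL1hi, 0.796, 0.744 and 1.01 in CD62Lhi PSGL1hi and 1.16, 0.861 and 0.995 in naive cells. Every PSGL1lo array lay above every other array, and the other 3 populations overlapped. It rose by 2.74 ± 0.26, or 6.68-fold, against CD62Llo PSGL1hi cells (adjusted p = 9.61e-06), by 3.00 ± 0.26 against CD62Lhi PSGL1hi (2.61e-06) and by 2.76 ± 0.26 against naive cells (2.49e-06). The gene's other 2 probe sets showed the same pattern, with rises of 2.51 and 3.44 against CD62Llo PSGL1hi and of 2.63 and 3.91 against naive cells. No call was made for Slc1a4 among the other 3 populations.

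Slc7a10 differed most of all transporter genes and was the lowest in naive cells. It encodes asc-1, a light chain that pairs with the Slc3a2 product and exchanges small neutral amino acids such as alanine, serine and glycine. The ratios were 4.68, 3.01 and 2.65 in CD62Llo PSGL1lo cells, 1.33, 1.40 and 0.986 in CD62Llo PSGL1hi cells, 0.992, 0.758 and 1.01 in CD62Lhi PSGL1hi cells, and 0.106, 0.0976 and 0.109 in naive cells. The PSGL1lo arrays lay above all others and the naive arrays below all others, while the 2 PSGL1hi populations overlapped. Slc7a10 was 1.45 ± 0.19 higher in PSGL1lo than in CD62Llo PSGL1hi cells (adjusted p = 0.000189) and 1.87 ± 0.19 higher than in CD62Lhi PSGL1hi cells (1.25e-05). Relative to naive cells Slc7a10 was higher by 32.1-fold in PSGL1lo (5.0 ± 0.19 on the log2 scale, adjusted p = 3.40e-10), 11.8-fold higher in CD62Llo PSGL1hi (1.02e-08) and 8.76-fold higher in CD62Lhi PSGL1hi cells (4.84e-08). Between the 2 PSGL1hi populations the difference was 0.42 ± 0.19 (adjusted p = 0.522). This gene was read by 1 probe set.

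Slc36a4 and Slc7a7 followed with about 2-fold higher ratios in PSGL1lo cells. Slc36a4 encodes PAT4, an amino acid transporter with high affinity for proline and tryptophan. Its ratios were 2.46, 1.85 and 2.17 in CD62Llo PSGL1lo, 1.03, 1.40 and 0.762 in CD62Llo PSGL1hi, 0.972, 1.03 and 0.969 in CD62Lhi PSGL1hi and 0.746, 0.632 and 0.631 in naive cells. The PSGL1lo arrays were the highest and the naive arrays the lowest, without overlap. It rose by 1.06 ± 0.18 against CD62Llo PSGL1hi (adjusted p = 0.00127), by 1.12 ± 0.18 against CD62Lhi PSGL1hi (0.000552) and by 1.69 ± 0.18 against naive cells (6.20e-06). Both PSGL1hi populations were also higher than naive cells, by 0.63 and 0.57 (adjusted p = 0.0234 and 0.0391). These last 2 calls were lost in 4 and 7 of the 12 fits that left out 1 array, with adjusted p up to 0.105 and 0.131, and after quantile normalization.

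Slc7a7 encodes y+LAT1, a partner of the Slc3a2 product that exports cationic amino acids in exchange for neutral ones. Its ratios were 3.27, 1.60 and 2.00 in CD62Llo PSGL1lo cells, 1.07, 0.969 and 0.878 in CD62Llo PSGL1hi cells, 1.21, 0.964 and 1.03 in CD62Lhi PSGL1hi cells and 0.807, 0.756 and 0.652 in naive cells. Each PSGL1lo array lay above the other 9, and each naive array below the other 9. The gene rose by 1.18 ± 0.20 in PSGL1lo against CD62Llo PSGL1hi cells (adjusted p = 0.00161), by 1.04 ± 0.20 against CD62Lhi PSGL1hi cells (0.00294) and by 1.57 ± 0.20 against naive cells (4.55e-05). A second probe set was called only against naive cells, with a smaller rise of 0.38 that was lost in 4 of the 12 fits without 1 array (adjusted p up to 0.129). The PSGL1hi populations were 0.40 and 0.53 above naive cells on the main probe set, short of the threshold (adjusted p = 0.214 for CD62Llo PSGL1hi and 0.0929 for CD62Lhi PSGL1hi). Without CD62Llo PSGL1lo replicate 1 both passed it, the first at 0.0491 and the second at 0.00996, and without CD62Llo PSGL1lo replicate 2 the second did, at 0.0334. With only the 2 populations compared both passed (0.0196 and 0.0121), and the second did with the replicate block (0.0179) and with array weights (0.0283).

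**Figure D2:**
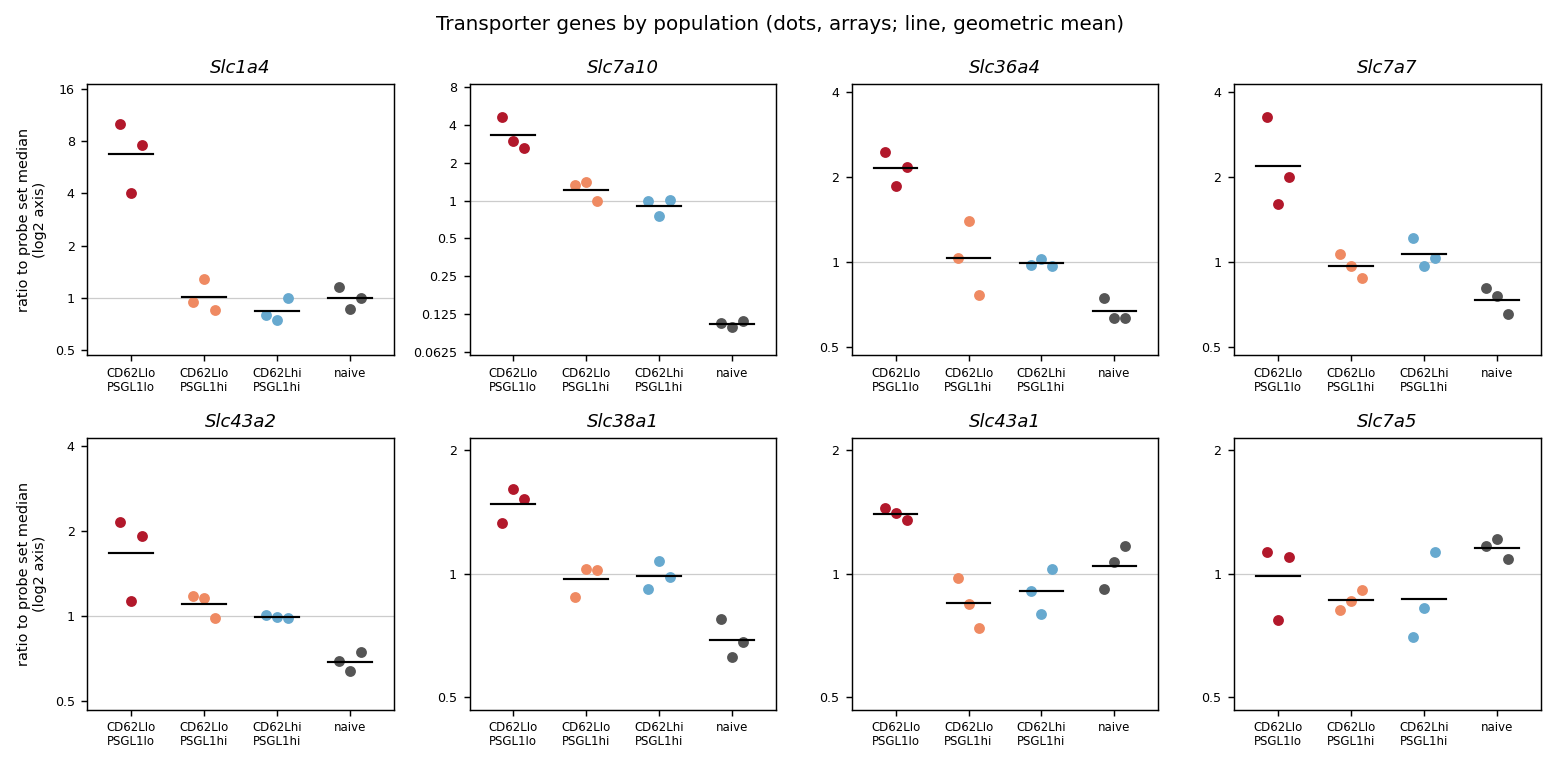
Ratio to the probe set's median over the 12 arrays (log2 axis) for 8 transporter genes, 1 probe set each, with a dot for each of the 3 arrays of a population and a line at their geometric mean. For Slc1a4, Slc7a10, Slc36a4, Slc7a7, Slc38a1 and Slc43a1 every PSGL1lo array lies above every other array, whereas Slc7a5 overlaps between PSGL1lo cells and each other population.

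The region around the start of Slc1a4, Slc7a10, Slc36a4 and Slc7a7 is shown because these 4 genes rose most in PSGL1lo against naive cells. They were not the only called genes that were highest in PSGL1lo cells. Each window of 300 bases runs from 250 before to 50 after the RefSeq gene start, on build GRCm38.p6, in the direction of transcription. Capitals mark the amino acid response motif TGATGNAA, to which ATF4 complexes can bind, on either strand. Where several starts are annotated, as for Slc7a7, the window with the most motifs is printed.
Slc1a4, chr11:20332664-20332963, minus strand: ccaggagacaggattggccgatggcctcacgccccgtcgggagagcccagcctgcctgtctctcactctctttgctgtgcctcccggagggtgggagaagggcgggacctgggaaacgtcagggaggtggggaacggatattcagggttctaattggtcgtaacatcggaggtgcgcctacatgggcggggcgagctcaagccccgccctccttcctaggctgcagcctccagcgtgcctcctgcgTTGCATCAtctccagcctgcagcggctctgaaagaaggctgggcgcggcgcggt
Slc7a7, chr14:54417895-54418194, minus strand: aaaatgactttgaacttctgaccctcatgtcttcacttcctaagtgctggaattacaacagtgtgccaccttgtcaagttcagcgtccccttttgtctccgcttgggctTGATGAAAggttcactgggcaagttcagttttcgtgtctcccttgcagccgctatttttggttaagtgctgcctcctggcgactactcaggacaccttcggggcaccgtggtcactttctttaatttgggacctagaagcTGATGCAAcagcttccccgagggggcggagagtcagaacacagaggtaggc
Slc7a10, chr7:35186135-35186434, plus strand: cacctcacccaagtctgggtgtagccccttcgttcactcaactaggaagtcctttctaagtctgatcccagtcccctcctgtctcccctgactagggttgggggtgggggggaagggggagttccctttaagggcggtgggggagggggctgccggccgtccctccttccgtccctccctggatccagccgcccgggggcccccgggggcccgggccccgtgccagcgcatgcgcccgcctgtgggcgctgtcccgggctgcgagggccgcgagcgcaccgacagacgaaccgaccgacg
Slc36a4, chr9:15709488-15709787, plus strand: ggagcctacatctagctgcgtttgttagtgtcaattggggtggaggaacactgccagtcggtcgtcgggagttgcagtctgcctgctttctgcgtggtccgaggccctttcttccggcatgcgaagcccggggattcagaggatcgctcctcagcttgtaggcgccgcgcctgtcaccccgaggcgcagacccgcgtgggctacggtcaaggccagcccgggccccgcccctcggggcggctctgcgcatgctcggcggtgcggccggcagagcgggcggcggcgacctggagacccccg

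The Slc1a4 window held 1 match, which begins 4 bases before the annotated start. The Slc7a7 window held 2. The Slc7a10 and Slc36a4 windows held none. Slc38a6, Slc43a1 and Slc43a2 were also highest in PSGL1lo cells on a called probe set, and their windows held none either. The motif was in 3.97% of the 32851 RefSeq windows, and of 67 windows found for 46 of the 63 transporter genes 5 did (7.46%), at Slc1a4, Slc6a21, Slc7a11 and Slc7a7. Slc7a7 has 5 windows, 3 of them without the motif, and the 2 with it overlap and share 1 site, which thus counts in 2 of the 5. The E-box CACGTG, which reads the same on both strands and whose last letters TG can also begin the first motif, was in 7.15% of all windows and in 9 of the 67 (13.4%). These are matches of letters in windows and not measured binding.

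Slc38a1 and Slc43a1 also rose in PSGL1lo cells against each of the other 3 populations, and Slc43a2 against 2 of them. Slc38a1 encodes SNAT1, a sodium-coupled carrier of glutamine. Its ratios were 1.33, 1.61 and 1.52 in CD62Llo PSGL1lo, 0.877, 1.03 and 1.02 in CD62Llo PSGL1hi, 0.916, 1.07 and 0.981 in CD62Lhi PSGL1hi and 0.775, 0.626 and 0.680 in naive cells. PSGL1lo arrays were above and naive arrays below all others, and the 2 PSGL1hi populations overlapped. Slc38a1 was higher by 0.61 ± 0.11 than in CD62Llo PSGL1hi cells (adjusted p = 0.00309), by 0.59 than in CD62Lhi PSGL1hi cells (0.00304) and by 1.10 than in naive cells (5.77e-06). The 2 PSGL1hi populations were 0.49 and 0.52 above naive cells (adjusted p = 0.00753 and 0.00535; the first was 0.0604 after quantile normalization). A second Slc38a1 probe set was called in PSGL1lo against naive cells alone, at 0.60.

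Slc43a1 and Slc43a2 encode LAT3 and LAT4, which let branched-chain amino acids and phenylalanine pass without sodium. Slc43a1 ratios were 1.45, 1.40 and 1.36 in CD62Llo PSGL1lo cells, against 0.975, 0.846 and 0.738 in CD62Llo PSGL1hi, 0.908, 0.798 and 1.03 in CD62Lhi PSGL1hi and 0.919, 1.07 and 1.17 in naive cells. All PSGL1lo arrays exceeded the other 9, and naive cells overlapped with both PSGL1hi populations. The rise was 0.72 ± 0.13 against CD62Llo PSGL1hi (adjusted p = 0.00196) and 0.63 against CD62Lhi PSGL1hi cells (0.00408; 0.0693 after quantile normalization). Against naive cells it was 0.42 (adjusted p = 0.0313), a call lost in 5 of the 12 fits without 1 array (adjusted p up to 0.141). That call was also lost after quantile normalization (0.25).

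Slc43a2 had ratios of 2.16, 1.14 and 1.92 in CD62Llo PSGL1lo cells, 1.18, 1.16 and 0.986 in CD62Llo PSGL1hi cells, 1.01, 0.993 and 0.986 in CD62Lhi PSGL1hi cells and 0.692, 0.640 and 0.744 in naive cells. PSGL1lo replicate 2 lay within the CD62Llo PSGL1hi range, and all naive arrays lay below the rest. The difference of 0.60 ± 0.18 from CD62Llo PSGL1hi cells was not called (adjusted p = 0.0593), and it was called with the replicate number as a block (0.0387), with arrays centred on their median (0.0417), with 1 probe set per gene (0.0358), with array weights (0.00227) and without PSGL1lo replicate 2 (0.000142). Slc43a2 was 0.75 higher in PSGL1lo than in CD62Lhi PSGL1hi cells (adjusted p = 0.0134), a call lost without PSGL1lo replicate 1 or 3 (0.0519 and 0.0663). It was 1.28 higher than in naive cells (0.000119). CD62Llo PSGL1hi cells were 0.68 above naive cells (adjusted p = 0.0187), a call lost in 4 of the 12 fits without 1 array (adjusted p up to 0.0798). CD62Lhi PSGL1hi cells were 0.53 above naive cells (adjusted p = 0.0641), a difference called under 5 other settings, at 0.00363 to 0.0434. The other 2 probe sets of Slc43a2 had no call.

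Slc38a6, Slc7a1 and Slc38a9 were called between CD44+ populations on probe sets other than their main one. Slc38a6, a family member of less settled function, was 0.56 higher than in CD62Llo PSGL1hi, 0.85 higher than in CD62Lhi PSGL1hi and 0.49 higher than in naive cells on 1 probe set (adjusted p = 0.0156, 0.000472 and 0.0155), while its main probe set had no call. The first of these was lost without CD62Llo PSGL1hi replicate 1 or 3 and the last without naive replicate 2 or 3, at adjusted p up to 0.0891 and 0.0707. Both were also lost after quantile normalization (adjusted p = 0.193 and 0.224). Slc7a1 encodes CAT1, the main carrier of arginine and lysine in many cells. One of its probe sets read 1.01, 1.02 and 1.08 in CD62Llo PSGL1lo cells, against 0.744, 0.831 and 0.736 in CD62Llo PSGL1hi cells, 0.999, 0.953 and 0.930 in CD62Lhi PSGL1hi cells and 1.00, 1.09 and 1.13 in naive cells. Thus the CD62Llo PSGL1hi arrays were the lowest, below all 9 others, with a difference of 0.43 for PSGL1lo against CD62Llo PSGL1hi cells (adjusted p = 0.00636) and of -0.48 for CD62Llo PSGL1hi against naive cells (0.00163). Another Slc7a1 probe set was also lower in CD62Llo PSGL1hi than in naive cells. That call was lost in 5 of the 12 fits without 1 array (adjusted p up to 0.107). The main Slc7a1 probe set, with ratios of 0.842 to 1.19 over the 12 arrays, had no call. Slc38a9, whose product senses arginine at the lysosome, was lower, at -0.36, in PSGL1lo than in CD62Llo PSGL1hi cells on 1 probe set whose suffix marks possible binding to other transcripts (adjusted p = 0.0348; lost in 6 of the 12 fits without 1 array, up to 0.111).

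Slc3a2 and its light chain partners Slc7a5, Slc7a6 and Slc7a11 had no call in any comparison, unlike the partners Slc7a7 and Slc7a10. Slc3a2 encodes CD98 heavy chain, which brings the Slc7a5, Slc7a6, Slc7a7, Slc7a10 and Slc7a11 products to the plasma membrane. Its ratios were 1.23, 0.875 and 1.08 in CD62Llo PSGL1lo cells, 1.204, 1.05 and 1.08 in CD62Llo PSGL1hi cells, 0.936, 0.997 and 1.00 in CD62Lhi PSGL1hi cells and 0.924, 0.924 and 0.851 in naive cells. The 2 CD62Llo populations overlapped, and no comparison passed the threshold. The largest Slc3a2 difference was 0.30 ± 0.12 for CD62Llo PSGL1hi against naive cells (adjusted p = 0.0965). It passed the threshold after quantile normalization (0.0381), with only the 2 populations compared (0.0354), with array weights (0.0246) and without PSGL1lo replicate 2 (0.0352). PSGL1lo cells were 0.22 above naive cells (adjusted p = 0.228; 0.0279 without PSGL1lo replicate 2).

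Slc7a5, the light chain LAT1 for large neutral amino acids, read 1.13, 0.773 and 1.10 in CD62Llo PSGL1lo, 0.817, 0.859 and 0.913 in CD62Llo PSGL1hi, 0.702, 0.826 and 1.13 in CD62Lhi PSGL1hi and 1.17, 1.22 and 1.09 in naive cells. The 3 CD44+ populations overlapped. Slc7a5 differed by 0.19 ± 0.17 between PSGL1lo and CD62Llo PSGL1hi cells (adjusted p = 0.658). CD62Llo PSGL1hi cells were -0.42 ± 0.17 from naive cells (adjusted p = 0.109) and CD62Lhi PSGL1hi cells -0.41 (0.121); without CD62Lhi PSGL1hi replicate 3 both passed the threshold, at 0.0497 and 0.0159, and without PSGL1lo replicate 2 the first did, at 0.0494. With array weights both passed as well (0.0161 and 0.0218), and with only the 2 populations compared the first did (0.00522). Slc7a6, the light chain y+LAT2, had ratios on its main probe set of 0.903 to 1.02 in CD62Llo PSGL1lo, 0.960 to 1.14 in CD62Llo PSGL1hi, 0.891 to 1.26 in CD62Lhi PSGL1hi and 0.964 to 1.08 in naive cells. Slc7a11, the cystine and glutamate exchanger xCT, ran on its main probe set from 0.899 to 1.15 over all 12 arrays. On these main probe sets no adjusted p was below 0.76, and a second probe set of each gene had no call.

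**Figure D3:**
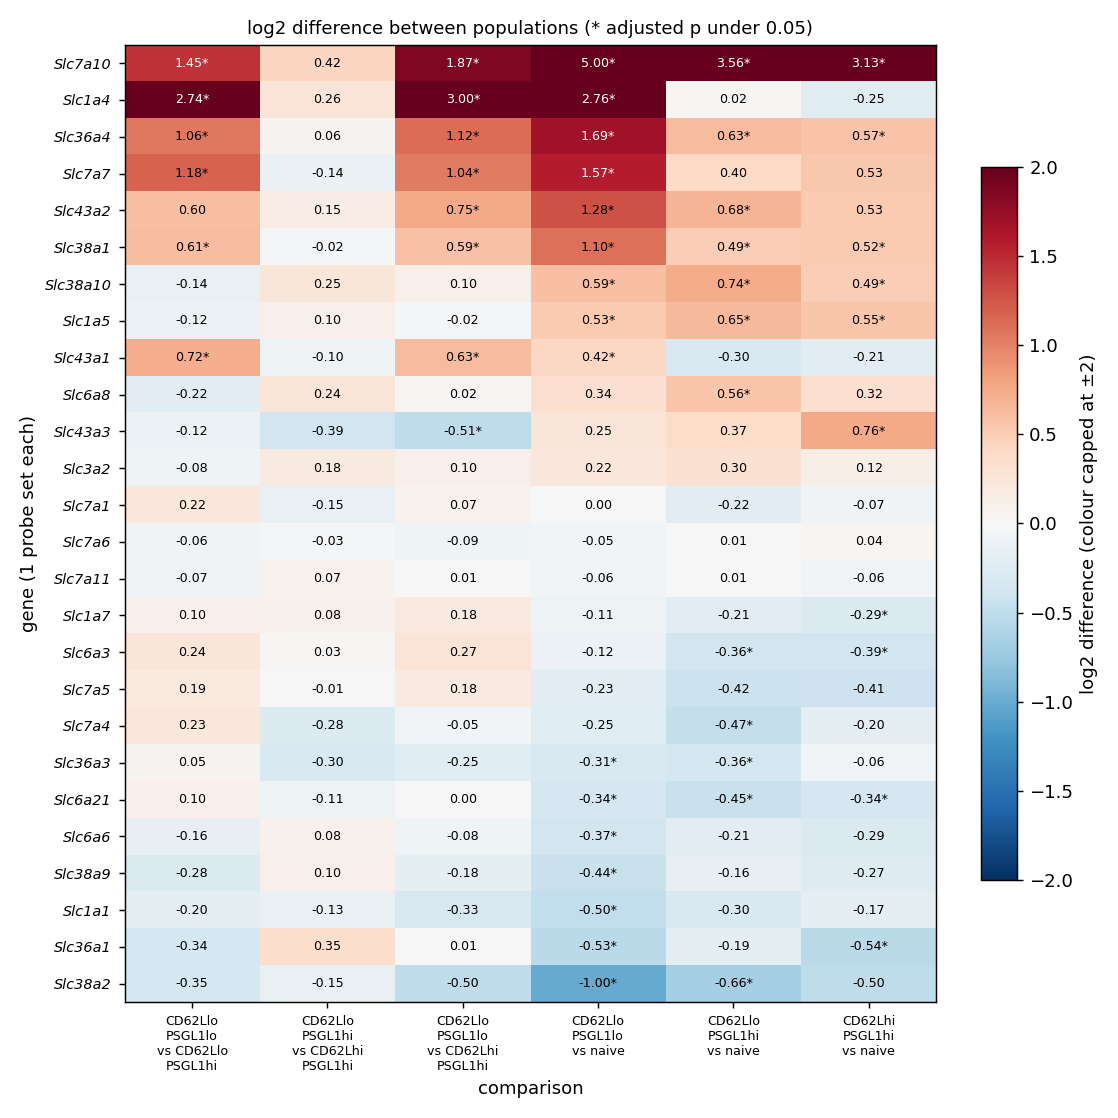
Log2 difference (first-named minus second-named population) for 26 transporter genes, 1 probe set each, in the 6 comparisons, ordered by the difference between PSGL1lo and naive cells; an asterisk marks an adjusted p under 0.05 (limma) and the colour is capped at 2. Slc7a10, Slc1a4, Slc36a4 and Slc7a7 head the list, with 5.0, 2.76, 1.69 and 1.57 in PSGL1lo against naive cells, and Slc38a2 ends it with -1.0.

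Between CD62Llo PSGL1hi and CD62Lhi PSGL1hi cells, which differ by gate in CD62L, no transporter probe set was called. Of all probe sets 0.395% were higher and 0.839% lower. The smallest adjusted p among the 125 members was 0.145, and at an unadjusted p under 0.05 there were 11 members (8.80%), against 9.35% of all probe sets. The largest difference over members was 0.57 on the log2 scale, for a Slc1a4 probe set with adjusted p = 0.562. With the replicate number as a block, 1 Slc38a9 probe set passed the threshold (0.41, adjusted p = 0.0426), and after quantile normalization 1 Slc7a1 probe set did (-0.72, 0.00754). Of 14 markers of dividing cells measured, 9 were lower in CD62Llo PSGL1hi cells when set against CD62Lhi PSGL1hi cells, with a median of -1.40 over the list and summed ratios of 11.7 to 14.5 against 22.8 to 41.9.

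Dividing-cell markers also moved with the PSGL1lo comparisons. Their summed ratio was 8.58 to 12.7 in CD62Llo PSGL1lo cells, with 2 of 14 genes lower than in CD62Llo PSGL1hi and 11 lower than in CD62Lhi PSGL1hi cells. The list overlapped between the 2 CD62Llo populations. Of all probe sets, 3.41% were higher and 4.97% lower in PSGL1lo than in CD62Llo PSGL1hi cells. Against CD62Lhi PSGL1hi cells these shares were 5.37 and 6.27%. Of 6 genes of stroma and endothelium, Pecam1 and Kdr were higher in PSGL1lo cells than in both PSGL1hi populations, with summed ratios of 6.35 to 6.84 in PSGL1lo, 5.20 to 5.65 in CD62Llo PSGL1hi and 5.33 to 5.91 in CD62Lhi PSGL1hi cells. Of 5 CD8 T and NK cell genes, Klrd1 was lower in PSGL1lo cells than in both PSGL1hi populations. The summed ratio of that list was 3.54 to 3.89 in CD62Llo PSGL1lo, 5.69 to 8.80 in CD62Llo PSGL1hi and 4.79 to 6.15 in CD62Lhi PSGL1hi cells, so PSGL1lo arrays overlapped with neither. Of 7 B cell genes, Cd79b and Ms4a1 were lower in PSGL1lo cells than in both, and the summed ratios of 5.72 to 6.21 in CD62Llo PSGL1lo, 6.82 to 7.31 in CD62Llo PSGL1hi and 6.66 to 8.03 in CD62Lhi PSGL1hi cells did not overlap between PSGL1lo and the others either. None of the 8 genes for macrophages, monocytes and neutrophils, 5 for dendritic cells and 7 for erythroid cells and platelets was called between PSGL1lo and either PSGL1hi population; of 5 plasma cell genes 1 was lower than in CD62Lhi PSGL1hi cells. Of 9 T cell genes, Thy1 was lower in PSGL1lo cells than in both PSGL1hi populations, and Cd4 was higher than in CD62Lhi PSGL1hi cells. No deposited ratio was 0. The part of these markers in the transporter results was not tested.

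Slc43a3 was the only called transporter gene with its highest mean in CD62Lhi PSGL1hi cells. Its product carries purine nucleobases. The ratios were 0.951, 0.914 and 0.984 in CD62Llo PSGL1lo, 1.02, 1.04 and 1.03 in CD62Llo PSGL1hi, 1.27, 1.08 and 1.79 in CD62Lhi PSGL1hi and 0.877, 0.780 and 0.748 in naive cells. The 4 populations did not overlap, and replicate 3 of CD62Lhi PSGL1hi cells was the highest. Slc43a3 was higher by 0.76 ± 0.15 in CD62Lhi PSGL1hi than in naive cells (adjusted p = 0.00208). It was lower, at -0.51 ± 0.15, in PSGL1lo than in CD62Lhi PSGL1hi cells (adjusted p = 0.0367), a call lost in 10 of the 12 fits without 1 array, with adjusted p from 0.0507 to 0.111. That call was also lost after quantile normalization, with only the 2 populations compared and with array weights.

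Slc1a5 and Slc38a10 were higher in all 3 CD44+ populations than in naive cells and were not called among the CD44+ populations. Slc1a5 encodes ASCT2, an exchanger of glutamine. Its ratios were 1.01, 0.807 and 1.16 in CD62Llo PSGL1lo cells, 1.11, 1.07 and 1.03 in CD62Llo PSGL1hi cells, 0.980, 1.03 and 0.986 in CD62Lhi PSGL1hi cells and 0.771, 0.678 and 0.602 in naive cells. Naive arrays were below all 9 CD44+ arrays. The rises were 0.53 ± 0.13 in PSGL1lo, 0.65 in CD62Llo PSGL1hi and 0.55 in CD62Lhi PSGL1hi cells (adjusted p = 0.00796, 0.00222 and 0.00686), and among CD44+ populations differences were at most 0.12 in size. A second Slc1a5 probe set had no call in the main fit. It was called higher in CD62Llo PSGL1hi than in naive cells with only the 2 populations compared (0.347, adjusted p = 0.0145). With array weights the same call was made (0.363, 0.0272).

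Slc38a10 had ratios of 0.995, 1.01 and 1.14 in CD62Llo PSGL1lo, 1.11, 1.10 and 1.27 in CD62Llo PSGL1hi, 0.923, 0.900 and 1.11 in CD62Lhi PSGL1hi and 0.699, 0.729 and 0.650 in naive cells. Naive arrays were again below the other 9, and the 3 CD44+ populations overlapped with each other. It rose by 0.59 ± 0.11, 0.74 and 0.49 in the PSGL1lo, CD62Llo PSGL1hi and CD62Lhi PSGL1hi cells against naive cells (adjusted p = 0.00104, 0.000208 and 0.00516; the last was 0.101 after quantile normalization). A second of its 7 probe sets gave rises of 0.48, 0.54 and 0.51. Another was 0.45 higher in CD62Llo PSGL1hi than in naive cells (adjusted p = 0.0163). A further one was 0.33 higher in CD62Llo PSGL1hi and 0.32 higher in PSGL1lo than in naive cells (0.0363 and 0.0405). These calls were lost in 3, 5 and 6 of the 12 fits without 1 array. The other 3 probe sets had no call in any comparison. Of these 3, 1 was lower in CD62Llo PSGL1hi than in naive cells, at -0.335. It passed the threshold with only the 2 populations compared (adjusted p = 0.0392). With array weights it passed in CD62Llo PSGL1hi (-0.361, 0.0187) and PSGL1lo cells (-0.333, 0.0392) against naive cells. Slc6a8, the creatine transporter, was 0.56 higher in CD62Llo PSGL1hi than in naive cells (adjusted p = 0.0229; lost in 4 of the 12 fits without 1 array, up to 0.0955), with no call for the other populations or for its second probe set.

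Slc38a2 was lower in CD44+ than in naive cells, the opposite of Slc38a1 from the same family. It encodes SNAT2, a sodium-coupled carrier of small neutral amino acids that many cells raise when amino acids are short. The ratios were 0.974, 0.607 and 0.718 in CD62Llo PSGL1lo, 1.14, 0.869 and 0.886 in CD62Llo PSGL1hi, 1.25, 1.03 and 0.940 in CD62Lhi PSGL1hi and 1.59, 1.49 and 1.45 in naive cells. All naive arrays lay above the 9 CD44+ arrays, and neighbouring CD44+ populations overlapped. The difference from naive cells was -1.0 ± 0.16 in PSGL1lo (adjusted p = 0.000416), -0.66 ± 0.16 in CD62Llo PSGL1hi (0.0122; 0.057 and 0.0517 without that population's replicate 2 or 3) and -0.50 ± 0.16 in CD62Lhi PSGL1hi cells (0.0503; past the threshold in 4 of the 12 fits without 1 array, down to 0.0167, and in 5 other settings, at 0.00415 to 0.0493). A second probe set was called in all 3 comparisons, at -0.77, -0.52 and -0.56, and the remaining one in none. With array weights the remaining one passed in PSGL1lo (-0.448, adjusted p = 0.017) and CD62Llo PSGL1hi cells (-0.355, 0.0402) against naive cells. On the main probe set the difference between PSGL1lo and CD62Lhi PSGL1hi cells was -0.50 ± 0.16 (adjusted p = 0.0688). It passed the threshold with the replicate block (0.00645), with 1 probe set per gene (0.0455), with array weights (0.0432) and without PSGL1lo replicate 1 (0.00733). Against CD62Llo PSGL1hi cells it was -0.35 (adjusted p = 0.293; 0.042 without PSGL1lo replicate 1).

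**Figure D4:**
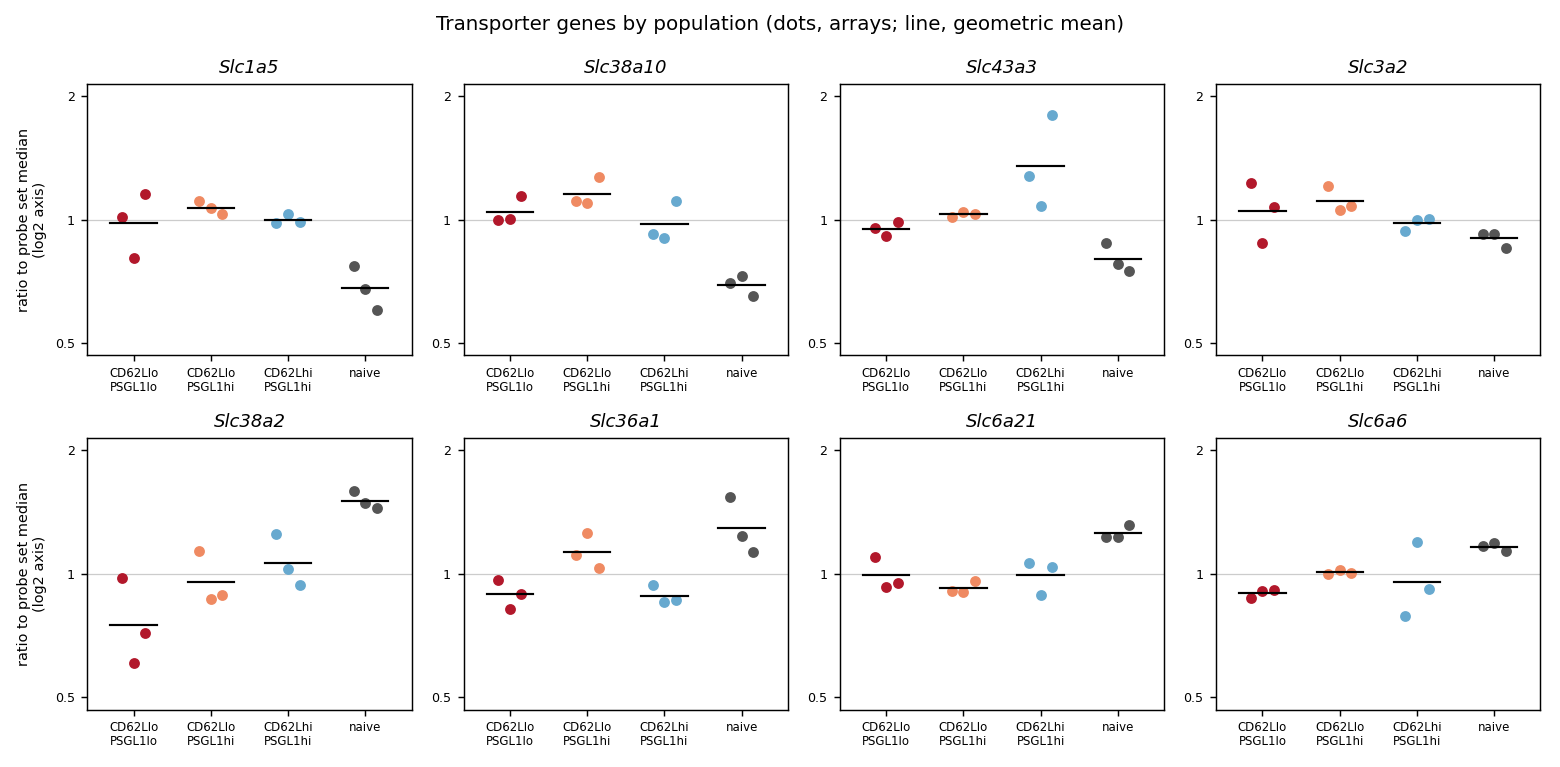
Ratio to the probe set's median over the 12 arrays (log2 axis) for 8 transporter genes, drawn as dots for the 3 arrays of a population with a line at their geometric mean. Naive arrays lie below all CD44+ arrays for Slc1a5, Slc38a10 and Slc43a3 and above all of them for Slc38a2 and Slc6a21.

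Slc36a1 was lower than in naive cells in 2 of the 3 CD44+ populations. Slc36a1 encodes PAT1, a proton-coupled exporter of small amino acids from lysosomes. Its ratios were 0.966, 0.819 and 0.894 in CD62Llo PSGL1lo, 1.11, 1.26 and 1.03 in CD62Llo PSGL1hi, 0.941, 0.852 and 0.863 in CD62Lhi PSGL1hi and 1.54, 1.24 and 1.13 in naive cells. PSGL1lo and CD62Lhi PSGL1hi arrays were below the rest, and CD62Llo PSGL1hi overlapped with naive cells. Against naive cells Slc36a1 fell by 0.53 ± 0.12 in PSGL1lo (adjusted p = 0.00571) and by 0.54 in CD62Lhi PSGL1hi (0.00590), and CD62Llo PSGL1hi cells differed by -0.19 (0.336). The lower value in those 2 populations than in CD62Llo PSGL1hi cells, by 0.34 and 0.35 in size, was not called (adjusted p = 0.123 and 0.292).

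Slc38a9 was read by 7 probe sets that gave unlike results. The main one was lower, at -0.44, in PSGL1lo cells than in naive ones (adjusted p = 0.0234). This call was lost in 4 of the 12 fits without 1 array (up to 0.0896) and after quantile normalization. Another read 0.911, 1.19 and 0.867 in CD62Llo PSGL1lo, 0.879, 1.06 and 0.778 in CD62Llo PSGL1hi, 1.03, 0.973 and 0.634 in CD62Lhi PSGL1hi and 1.59, 1.55 and 1.53 in naive cells. On it naive cells were above all others, with -0.67, -0.79 and -0.86 in the 3 CD44+ populations (adjusted p = 0.0147, 0.00568 and 0.00325). The first was 0.0678 without PSGL1lo replicate 3 and 0.108 after quantile normalization. A further probe set was lowest in CD62Lhi PSGL1hi cells, 0.68 higher in PSGL1lo than in CD62Lhi PSGL1hi cells (adjusted p = 0.00234) and -0.59 in CD62Lhi PSGL1hi against naive cells (0.00493). One more probe set was lower in both PSGL1hi populations than in naive cells. These calls were lost in 4 and 3 of the alternative fits (adjusted p up to 0.081 for CD62Llo PSGL1hi and 0.0659 for CD62Lhi PSGL1hi cells). Of the 7 probe sets 2 had no call.

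Slc1a1 encodes EAAC1, a carrier of glutamate and cysteine. It had ratios of 0.939, 0.895 and 0.689 in CD62Llo PSGL1lo, 1.17, 0.812 and 0.916 in CD62Llo PSGL1hi, 0.986, 1.01 and 1.14 in CD62Lhi PSGL1hi and 1.17, 1.17 and 1.19 in naive cells, and was lower, at -0.50 ± 0.14, in PSGL1lo cells than in naive ones (adjusted p = 0.0215; lost in 4 of the 12 fits without 1 array, up to 0.106). The call was also lost after quantile normalization (0.163). The other 2 Slc1a1 probe sets had no call. Slc1a2 and Slc1a7, glutamate carriers best known from brain and retina, were lower, at -0.35 on 1 probe set and at -0.29, in CD62Lhi PSGL1hi than in naive cells (adjusted p = 0.0459 and 0.0392). These calls were lost in 8 and 7 of the 12 fits without 1 array. Both were also lost after quantile normalization, with arrays centred on their median and with only the 2 populations compared.

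The remaining called genes, most of them from the Slc6 family, moved little. Slc6a6, the taurine transporter, read 0.873, 0.909 and 0.915 in CD62Llo PSGL1lo, 0.998, 1.02 and 1.00 in CD62Llo PSGL1hi, 0.787, 1.19 and 0.920 in CD62Lhi PSGL1hi and 1.17, 1.19 and 1.14 in naive cells. It was lower, at -0.37 ± 0.12, in PSGL1lo cells than in naive ones (adjusted p = 0.0472), a call lost in 10 of the 12 fits without 1 array (up to 0.130). A second Slc6a6 probe set gave -0.36 (0.0160), lost without naive replicate 1 or 2 (up to 0.0775). Both calls were also lost after quantile normalization. Slc6a21 read 1.10, 0.931 and 0.951 in CD62Llo PSGL1lo, 0.908, 0.901 and 0.961 in CD62Llo PSGL1hi, 1.06, 0.889 and 1.04 in CD62Lhi PSGL1hi and 1.23, 1.23 and 1.32 in naive cells. All naive arrays were above the other 9, and the differences were -0.34, -0.45 and -0.34 (adjusted p = 0.0263, 0.00620 and 0.0310), of which the first and the last were lost in 5 and 4 of the 12 fits without 1 array (up to 0.0987 and 0.130). The first and the last were also lost after quantile normalization.

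Slc6a3, the dopamine transporter of neurons, read 1.03, 1.16 and 1.05 in CD62Llo PSGL1lo, 0.916, 0.857 and 0.971 in CD62Llo PSGL1hi, 0.894, 0.833 and 0.967 in CD62Lhi PSGL1hi and 1.04, 1.19 and 1.32 in naive cells. The 2 PSGL1hi populations were below naive cells, at -0.36 and -0.39 (adjusted p = 0.0316 and 0.0209), each lost in 4 of the 12 fits without 1 array (up to 0.148 and 0.107). Both were also lost after quantile normalization. Slc36a3 had ratios of 1.00, 0.852 and 0.877 in CD62Llo PSGL1lo, 0.912, 0.806 and 0.915 in CD62Llo PSGL1hi, 1.08, 0.997 and 1.16 in CD62Lhi PSGL1hi and 1.07, 1.19 and 1.12 in naive cells. Against naive cells it was -0.31 in PSGL1lo and -0.36 in CD62Llo PSGL1hi cells (adjusted p = 0.0475 and 0.0249). These calls were lost in 9 and 3 of the 12 fits without 1 array (up to 0.166 and 0.113). The first was also lost after quantile normalization (0.323). Slc7a4 was -0.47 in CD62Llo PSGL1hi against naive cells (adjusted p = 0.0412). This call was lost in 6 of the 12 fits without 1 array (up to 0.146) and after quantile normalization. All these differences were below 1.5-fold.

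The 87 uncalled probe sets stayed within narrow ranges. Each had a highest ratio less than 2 times its lowest, the widest being 1.96, and ratios between 0.651 and 1.65. The largest fitted difference among them was 0.42 in size, that of Slc7a5. The uncalled genes included the cationic amino acid carriers Slc7a2 and Slc7a3, the neutral amino acid light chain Slc7a8, the glutamine carriers Slc38a3 and Slc38a5, the glycine carriers Slc6a5 and Slc6a9, the broad carrier Slc6a14 and the glutamate carrier Slc1a3. Because no brightness was given, an absent transcript and a steady one look the same in these values.

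**Figure D5:**
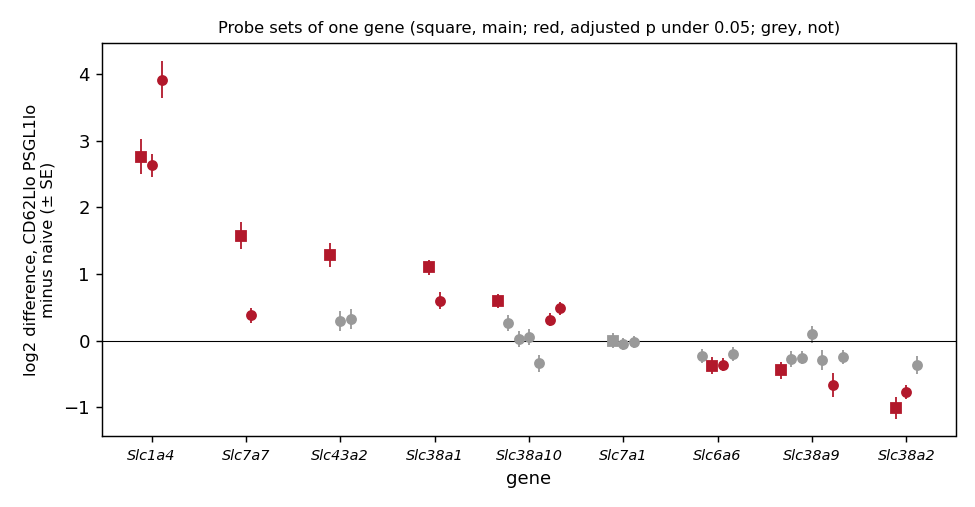
Log2 difference of CD62Llo PSGL1lo minus naive cells, with its standard error, for each probe set of 9 transporter genes; squares are the main probe set of a gene, and red marks an adjusted p under 0.05 (limma). The 3 Slc1a4 probe sets lie between 2.63 and 3.91, whereas the 7 probe sets of Slc38a10 and of Slc38a9 each include values on both sides of 0.

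Calls reached every probe set for only a few of the genes with several. Of 15 genes with several probe sets and a call, 3 had every probe set called in some comparison, namely Slc1a4, Slc38a1 and Slc7a7. For the others at least 1 probe set had no call, and the transcripts that each probe set reads were not analysed here. These counts do not compare the size or direction of differences between probe sets. The second probe sets of Slc38a1 and Slc7a7 were called against naive cells alone. The main probe set was called for 21 of the 63 genes.

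Genes of amino acid sensing had few calls. Of 32 measured genes for mTORC1 and its amino acid sensors, 2 were higher in PSGL1lo than in CD62Llo PSGL1hi cells and none lower, namely Rraga, which encodes RagA, a small GTPase of the sensing complex (0.46 ± 0.10, adjusted p = 0.00806), and Akt1s1, an mTORC1 subunit (0.60 ± 0.14). These were 6.25% of the list, against 3.41% of all probe sets. Against CD62Lhi PSGL1hi cells the same 2 were higher (6.25%, against 5.37%), and Fnip2 and Sesn2 lower (6.25%, against 6.27%). Against naive cells 2 were higher (6.25%, against 9.53% of all probe sets) and 5 lower (15.6%, against 10.6%) in PSGL1lo cells. In CD62Llo PSGL1hi cells 0 were higher (0%, against 9.1%) and 4 lower (12.5%, against 8.16%). CD62Lhi PSGL1hi cells had 3 higher (9.38%, against 8.6%) and 3 lower (9.38%, against 8.66%). The median of the list in PSGL1lo against naive cells was -0.05, the same as over all probe sets. Sesn1, a sestrin of the leucine-sensing branch, was the most changed, with ratios of 0.717, 0.996 and 0.703 in CD62Llo PSGL1lo, 1.00, 0.954 and 0.776 in CD62Llo PSGL1hi, 1.06, 1.07 and 0.932 in CD62Lhi PSGL1hi and 4.97, 4.67 and 4.34 in naive cells. It was lower, at -2.55 ± 0.14, in PSGL1lo cells than in naive ones (adjusted p = 8.24e-09) and nearly as much in the other 2.

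Of 21 measured genes of the GCN2 and ATF4 response, 4 were higher and none lower in PSGL1lo than in CD62Llo PSGL1hi cells, Stc2, Psat1, Vldlr and Mthfd2. Stc2, a secreted glycoprotein gene, had ratios of 5.97, 3.57 and 4.98 in CD62Llo PSGL1lo, 1.26, 1.41 and 1.13 in CD62Llo PSGL1hi, 0.841, 0.872 and 0.680 in CD62Lhi PSGL1hi and 0.730, 0.826 and 0.730 in naive cells. It rose by 1.91 ± 0.17 (adjusted p = 3.52e-06) in PSGL1lo against CD62Llo PSGL1hi cells. Psat1, an enzyme of serine synthesis, rose by 1.15 ± 0.15 (0.000208). Asns, the asparagine synthetase gene and a well known ATF4 target, had a different order, with ratios of 0.981, 0.783 and 1.02 in CD62Llo PSGL1lo, 1.33, 1.15 and 1.37 in CD62Llo PSGL1hi, 1.14, 0.869 and 1.63 in CD62Lhi PSGL1hi and 0.281, 0.360 and 0.296 in naive cells. Asns was higher in all 3 CD44+ populations than in naive cells, by 1.57, 2.04 and 1.92, and not called between PSGL1lo and CD62Llo PSGL1hi cells (-0.47 ± 0.19, adjusted p = 0.185). Trib3, another ATF4 target, was lower in all 3, at -0.78, -0.94 and -0.71. Atf4 itself differed by at most 0.20 in size with no call. The 4 higher genes were 19% of the list, against 3.41% of all probe sets, and the median over the 21 genes was 0.05, against 0.00 over all probe sets. In PSGL1lo against CD62Lhi PSGL1hi cells 3 were higher (14.3%, against 5.37%), Stc2, Psat1 and Vldlr, and 1 was lower (4.76%, against 6.27%), Psph, with a median of -0.08 against 0.00. In PSGL1lo against naive cells 5 were higher (23.8%, against 9.53%) and 3 lower (14.3%, against 10.6%), the lower ones Trib3, Phgdh and Ddit3, with a median of 0.13 against -0.05.

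Other carriers and enzymes of amino acids were called in both directions. Of 21 measured amino acid and peptide transporters outside the 7 families, 1 was higher in PSGL1lo than in CD62Llo PSGL1hi cells, Slc16a10, the aromatic amino acid transporter TAT1, with ratios of 2.95, 2.27 and 1.99 in CD62Llo PSGL1lo, 0.650, 0.893 and 0.656 in CD62Llo PSGL1hi, 0.739, 0.780 and 0.729 in CD62Lhi PSGL1hi and 1.11, 1.17 and 1.14 in naive cells. PSGL1lo arrays were the highest and naive arrays next, and the rise was 1.71 ± 0.15 against CD62Llo PSGL1hi (adjusted p = 3.1e-06) and 1.06 against naive cells (8.95e-05). Lower in PSGL1lo than in CD62Llo PSGL1hi cells were Slc25a40 and the lysosomal peptide transporter gene Slc15a3. The higher gene was 4.76% of this list, against 3.41% of all probe sets, and the lower ones 9.52%, against 4.97%. In PSGL1lo against naive cells 3 were higher (14.3%, against 9.53%) and 4 lower (19%, against 10.6%). Of 13 measured enzymes for branched-chain amino acids, arginine, tryptophan and polyamines, Odc1, which starts polyamine synthesis from ornithine, and Bckdhb were higher by 1.07 and 0.54 in PSGL1lo than in CD62Llo PSGL1hi cells. They made up 15.4% of the list, against 3.41% of all probe sets, and none was lower. In PSGL1lo against naive cells 2 were higher (15.4%, against 9.53%). Srm, Il4i1, Bcat2 and Ass1 were lower (30.8%, against 10.6%). Between the CD62Llo populations 1 of 9 enzymes of glutamine and glutamate was higher in PSGL1lo cells (11.1%, against 3.41%) and none lower. None of 18 aminoacyl-tRNA synthetases was called there in either direction, against 3.41% of all probe sets higher and 4.97% lower. In PSGL1lo against naive cells, 0 of the 9 enzymes were higher and 2 lower (22.2%, against 10.6%). Of the 18 synthetases 1 was higher and 1 lower (5.56% each, against 9.53 and 10.6%).

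Of 13 regulators known to act on transporter genes or proteins, Hif1a and Tfe3 were higher and Nedd4l, Txnip and Nedd4 lower in PSGL1lo than in CD62Llo PSGL1hi cells. The higher genes were 15.4% of the list, against 3.41% of all probe sets, and the lower ones 23.1%, against 4.97%. Unlike Nedd4l, Nedd4 was higher in both PSGL1hi populations than in naive cells. Nedd4l, a ubiquitin ligase that removes carriers from the membrane, had ratios of 0.233, 0.189 and 0.250 in CD62Llo PSGL1lo, 0.695, 0.677 and 0.568 in CD62Llo PSGL1hi, 1.31, 1.44 and 1.36 in CD62Lhi PSGL1hi and 4.15, 3.82 and 3.10 in naive cells. The 4 populations did not overlap, and PSGL1lo cells were lower than naive cells by -4.04 ± 0.13 (adjusted p = 1.06e-10). Myc, known to drive transporter genes in activated T cells, was lower than in naive cells in all 3 CD44+ populations, at -1.63 in PSGL1lo, -1.28 in CD62Llo PSGL1hi and -1.06 in CD62Lhi PSGL1hi cells.

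Markers of T cells and of other cells differed between the CD44+ populations and naive cells as well. Of all probe sets, 9.53% were higher in PSGL1lo than in naive cells, 9.1% in CD62Llo PSGL1hi and 8.6% in CD62Lhi PSGL1hi cells. The shares lower than in naive cells were 10.6, 8.16 and 8.66%. Of 8 genes for macrophages, monocytes and neutrophils, S100a8 and S100a9 were lower in all 3 CD44+ populations, at -3.99 and -3.68 in PSGL1lo cells. Lyz2 was also lower in PSGL1lo cells and Itgam in both PSGL1hi populations, whereas Mpo was higher in PSGL1lo cells. The summed ratio of that list was 6.58 to 10.2 in CD62Llo PSGL1lo, 6.74 to 8.88 in CD62Llo PSGL1hi, 6.37 to 8.49 in CD62Lhi PSGL1hi and 32.0 to 34.3 in naive cells. Of 5 plasma cell genes 1 was higher in PSGL1lo, 2 in CD62Llo PSGL1hi and 3 in CD62Lhi PSGL1hi cells, with summed ratios of 4.06 to 5.79, 5.05 to 6.42 and 6.15 to 9.16 against 3.38 to 3.66. Cd8a and Cd8b1 of 5 CD8 T and NK cell genes were lower in all 3, and of 14 dividing-cell genes 11 were higher in CD62Lhi PSGL1hi than in naive cells. Klrd1 of the CD8 T and NK cell genes was lower in PSGL1lo and higher in CD62Llo PSGL1hi than in naive cells. Of 9 T cell genes, 3 were higher in PSGL1lo, 6 in CD62Llo PSGL1hi and 1 in CD62Lhi PSGL1hi cells, while Thy1 was lower in PSGL1lo cells. Of 7 B cell genes, Ms4a1, Cd79b and Cr2 were lower in PSGL1lo cells. In both PSGL1hi populations Cr2 was lower and Cd79b higher. The part of these markers in the transporter differences from naive cells was not tested.

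Counts against naive cells depended on single arrays. Without PSGL1lo replicate 3, 17 members were called in PSGL1lo against naive cells instead of 26. The share of all probe sets fell as well, from 20.1 to 17.0%. In CD62Llo PSGL1hi against naive cells 20 members were called. The count was 13 without CD62Llo PSGL1hi replicate 1, 10 without its replicate 2, and 13 without naive replicate 2 or 3. The share of all probe sets fell there from 17.3% to 13.3, 13.6, 12.8 and 13.0% in the same 4 fits. None of the 85 calls made for transporter probe sets moved by over 1.5-fold when 1 array was left out. Of these, 53 stayed past the threshold in all 12 such fits, among them those of Slc1a4 and Slc7a10.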

How the data were processed

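CD4 T cells of 4 sorted populations were measured on 12 Affymetrix Mouse Genome arrays, 3 per population. The deposited values are linear ratios, and 99.7% of the 45101 probe sets have a median within 0.002 of 1 over the 12 arrays, so each was divided by its own median. MAS5 made the signals, per the submitters' processing notes, with no version or scaling stated there. The files used hold no brightness, so no gene could be set against background and the number of arrays limits the precision.

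After removal of 64 control probe sets, log2 ratios of 45037 probe sets were fitted with limma 3.58.1 in R 4.3.3 (lmFit and eBayes, 1 mean per population, 12 arrays, 8 residual and 5.54 prior degrees of freedom), and two-sided p-values were adjusted by Benjamini-Hochberg with a threshold of 0.05. No filter on low values was used. Symbols came from the platform annotation, which gave 34945 probe sets a single symbol, 932 several and 9160 none; all 63 genes matched RefSeq. Some further members of these families were not analysed here. The main probe set of a gene was the one without a suffix for cross-hybridisation, with a curated RefSeq target where known, and with the lowest number. Values on every array were given for 10 genes fixed by role and up to 12 more with the smallest F test p; every other called member was named, and from each other list up to 4 called genes with the smallest p per comparison. Members, gene lists and tests were chosen with earlier results of these data known. On simulated data with known changes the fit was also tested. For the CD62Llo PSGL1hi arrays the description field gives a gate that differs from title and design text, which were followed.

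Replicate numbers paired the CD44+ arrays, with correlations of deviations between same-numbered arrays of 0.138 to 0.451 over the 3 pairs of populations; with naive arrays they ran from -0.082 to 0.157. Alternatives were quantile normalization, arrays centred on their median, 1 probe set per gene, the replicate block, only the 2 populations compared, array weights and leaving out each array. Promoter windows came from RefSeq on GRCm38.p6.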

Additional observations from a re-analysis of the deposited data

How the results depend on the processing

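Over 258 differences of single probe sets, alternatives gave 4542 values, of which 4283 stayed on the same side of the threshold, 187 lost a call, 72 gained one and 0 changed the sign of a call; signs of uncalled differences were not compared. Of 85 calls, 50 held under every alternative run, among them all those of Slc1a4 and Slc7a10, and 23 were lost after quantile normalization. Not every call lost or gained under an alternative was listed above. Under quantile normalization 1 member was called between CD62Llo PSGL1hi and CD62Lhi PSGL1hi cells instead of 0. The count was 17 instead of 26 between PSGL1lo and naive cells, and 9 instead of 16 between CD62Lhi PSGL1hi and naive cells. The shares of all probe sets in these comparisons were 1.98% instead of 1.23%, 14.0% instead of 20.1% and 12.7% instead of 17.3%. The replicate block on the 9 CD44+ arrays gave 1 call between the PSGL1hi populations; the other paired counts, 12 and 13, stayed close to 11 and 12. Of all probe sets 2.42% were called between the PSGL1hi populations with that block, and 10.6 and 14.8% in the other pairs. Without the block these shares were 1.23, 8.38 and 11.6%. With the block on 12 arrays, whose numbers do not pair naive with CD44+ arrays, the counts against naive cells were 27, 22 and 20. The shares of all probe sets were 23.6, 21.1 and 20.7% there, against 20.1, 17.3 and 17.3% without it. Array weights gave 41 members instead of 25 by the F test and 31 instead of 20 between CD62Llo PSGL1hi and naive cells. Of all probe sets, 31.3% instead of 23.7% were called by the F test, and 26.1% instead of 17.3% in that comparison. The causes were not tested.

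When 1 array was left out, counts ran from 20 to 28 by the F test, from 9 to 13 in PSGL1lo against CD62Llo PSGL1hi, 0 throughout in CD62Llo PSGL1hi against CD62Lhi PSGL1hi, from 11 to 13 in PSGL1lo against CD62Lhi PSGL1hi, and against naive cells from 17 to 26 in PSGL1lo, from 10 to 24 in CD62Llo PSGL1hi and from 12 to 21 in CD62Lhi PSGL1hi cells. The shares of all probe sets ran from 18.7 to 25.8% by the F test. Among CD44+ populations, in the same order, they ran from 6.04 to 8.95%, 0.808 to 1.59% and 9.38 to 11.9%. Against naive cells they ran from 15.7 to 20.7%, 12.8 to 20.2% and 13.1 to 19.7%. With 3 arrays a group and no brightness in the values, small differences and absent transcripts cannot be resolved.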
